A study of Homo sapiens with 6 samples.

Results

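The integrated stress response was followed here through 10 genes: ATF4, DDIT3 (the gene of CHOP), ATF3, TRIB3, CHAC1, DDIT4, SESN2, ASNS, CEBPB and PPP1R15A. They were taken from the deposited gene table by symbol. All 10 were among its 23355 entries with a gene symbol, and all 10 passed the filter on low counts that left 14053 genes for testing.

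The integrated stress response begins when a kinase that senses amino acid shortage, misfolded protein in the endoplasmic reticulum (ER), heme deficiency or double-stranded RNA phosphorylates the translation factor eIF2. General translation then slows, while the mRNA of the transcription factor ATF4 is translated more, so that ATF4 activity is set largely by translation and only in part by the mRNA level measured here. ATF4, often paired with members of the C/EBP family, activates genes for amino acid synthesis, transport and tRNA charging, and also the genes of CHOP, of ATF3 and of inhibitors that end the response. In lung fibroblasts, amino acid synthesis driven by ATF4 supplies glycine for collagen.

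HFL-1, an established human fetal lung fibroblast line, was used for RNA sequencing to find genes regulated by TAZ, a transcriptional coactivator of the Hippo pathway. The cells were transiently transfected with either of 2 siRNAs against TAZ (siTAZ #1 or siTAZ #2) or with a non-targeting control (siNTC), and RNA was taken 48 h after transfection. Each of the 3 groups had 2 libraries, which the submitters call biological replicates. The groups shared the line, the culture and the transfection, and no untransfected cells and no cells under an added stress are compared here. Each comparison rests on 2 libraries against 2, but the libraries of all 3 groups entered the same main fit. The p-values of a comparison therefore measure the spread between replicate libraries in all 3 groups, including the group not compared. In bulk RNA, fewer cells of a kind and less RNA per cell cannot be told apart.

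The libraries held 15648055 to 32078188 counts. The gene of TAZ, listed as WWTR1, was at 131.5 ± 1.0 CPM (counts scaled to library size with TMM factors, SD, n = 2) with siNTC, at 27.4 ± 1.42 CPM (n = 2) with siTAZ #1 and at 44.6 ± 2.14 CPM (n = 2) with siTAZ #2. Replicate 2 of siTAZ #1 stood apart: it had few counts for the genes from RANGAP1 onward on chromosome 22 and for those of chromosomes X and Y, a stretch that took 0.246% of that library and 3.58% to 3.74% of the other 5. None of the 10 genes lies in it (0 of 10), although ATF4 lies on chromosome 22, ahead of RANGAP1. The common dispersion of the fit was 0.0807 with the genes of the stretch and 0.0164 without them, and without them the FDR with siTAZ #1 went from 0.061 to 0.021 for ATF3, from 0.08 to 0.032 for CHAC1 and from 0.12 to 0.048 for SESN2. Markers of fibroblasts were high, with COL1A1 at 5530 to 10900 CPM and VIM at 3800 to 5810 CPM. The summed level of 10 fibroblast markers was 34910 and 34990 CPM with siNTC, 24070 and 23190 CPM with siTAZ #1, and 27190 and 28960 CPM with siTAZ #2. Most of that sum came from COL1A1, COL1A2, COL3A1 and VIM. The other markers went both ways. DCN and LUM were lower with both siRNAs, with log2 fold changes of -0.66 and -1.59 for DCN and -0.54 and -1.92 for LUM. PDGFRA (423.8 CPM with siNTC, 1397 CPM with siTAZ #1) and PDGFRB were higher with siTAZ #1, and PDGFRB and THY1 with siTAZ #2. Of 14 markers of epithelial, endothelial, blood and muscle cells, KRT18, CD68 and MYH11 stood above 5.13 CPM, PTPRC stayed at or under 0.129 CPM and NKX2-1 at or under 0.0919 CPM, and the list summed to 107.9 to 126.2 CPM in every library. The part of these marker differences in the results was not tested.

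The promoters of 3 genes are shown because they hold the core of the C/EBP-ATF response element, the sequence through which ATF4 and C/EBP proteins act. The core was searched as TGATGNAA on either strand, from 250 bases before to 50 bases after the start of the canonical transcript in GRCh37. It was found in the promoters of ATF3, CHAC1 and ASNS, 3 of 10 (30%), against 195 of the 12808 promoters of tested genes (1.52%). The 250 bases ahead of the start are given 5′ to 3′ on the strand of the gene, with the core in capitals.
ATF3, chr1:212781853-212782102, plus strand: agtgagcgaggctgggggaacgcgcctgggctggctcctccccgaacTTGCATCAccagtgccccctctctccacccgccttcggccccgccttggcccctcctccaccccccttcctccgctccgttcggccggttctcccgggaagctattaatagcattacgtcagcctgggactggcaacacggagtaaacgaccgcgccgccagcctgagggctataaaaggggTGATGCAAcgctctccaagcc
CHAC1, chr15:41245419-41245668, plus strand: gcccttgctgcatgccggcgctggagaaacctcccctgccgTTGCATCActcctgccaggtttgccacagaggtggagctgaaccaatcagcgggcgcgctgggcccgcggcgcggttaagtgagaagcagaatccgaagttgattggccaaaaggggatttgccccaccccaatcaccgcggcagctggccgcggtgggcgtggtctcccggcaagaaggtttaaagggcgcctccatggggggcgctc
ASNS, chr7:97501721-97501970, minus strand: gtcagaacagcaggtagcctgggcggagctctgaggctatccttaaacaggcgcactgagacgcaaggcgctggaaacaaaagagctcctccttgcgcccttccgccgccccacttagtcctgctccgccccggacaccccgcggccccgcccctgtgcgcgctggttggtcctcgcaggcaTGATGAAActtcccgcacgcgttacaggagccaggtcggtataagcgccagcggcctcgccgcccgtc
The core lay at -68 to -61 in ASNS, at -209 to -202 on the opposite strand in CHAC1, and in ATF3 at -21 to -14 and, on the opposite strand, at -203 to -196. The cyclic AMP response element TGACGTCA was found in PPP1R15A alone, at -58 to -51, against 3.5% of all promoters, and the TEAD site GGAATG in 0 of the 10, against 10.2%. Such a match is a run of letters in this window and was not tested for binding.

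With siTAZ #2, most of the genes of the response fell, ATF4 itself included, while with siTAZ #1 fewer fell and CEBPB rose. By edgeR's quasi-likelihood test at a false discovery rate (FDR) under 0.05, with log2 fold changes (log2FC) given with their standard errors (SE), 8 of 10 were lower with siTAZ #2 than with siNTC, namely all but ATF3 and CEBPB, and the test called 14.4% of all genes lower in that comparison. None was higher with siTAZ #2 (0 of 10, also 0 at an unadjusted p under 0.05, in DESeq2 and in edgeR's exact test; background 14.1%). With siTAZ #1, TRIB3, DDIT4 and ASNS were lower (3 of 10, background 9.78%) and CEBPB was higher (1 of 10, background 10.8%). Those 3 were also the genes that were lower with both siRNAs, against 3.74% of all genes, and 0 of 10 were higher with both (5.49% of all genes). The median log2 fold change of the 10 genes was -0.36 with siTAZ #1 and -1.07 with siTAZ #2, against 0.02 and 0.01 over all genes tested. Both comparisons use the same siNTC libraries. ASNS and DDIT4 are on the list of commonly lowered genes that the study chose on these libraries, so their decrease is not independent of that list.

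The 4 siTAZ libraries were all below both siNTC libraries for DDIT3, TRIB3, DDIT4, SESN2 and ASNS (5 of 10, against 17.5% of all genes) and all above them for 0 of 10 (against 18.6%). The 10 genes together took 0.119% and 0.122% of the counts with siNTC, 0.122% and 0.116% with siTAZ #1, and 0.0578% and 0.0609% with siTAZ #2. Without siNTC replicate 1, and likewise without siNTC replicate 2, 1 of the 10 genes was lower with siTAZ #1 and 5 with siTAZ #2, while the number over all genes fell from 1374 to 302 and 277 with siTAZ #1 and from 2021 to 774 and 714 with siTAZ #2. Without siTAZ #1 replicate 1, 5 were lower with siTAZ #1, and without replicate 2, the library with the missing stretch, 4 were lower and 2 higher, with 2604 and 1615 of all genes lower.

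**Figure D1:**
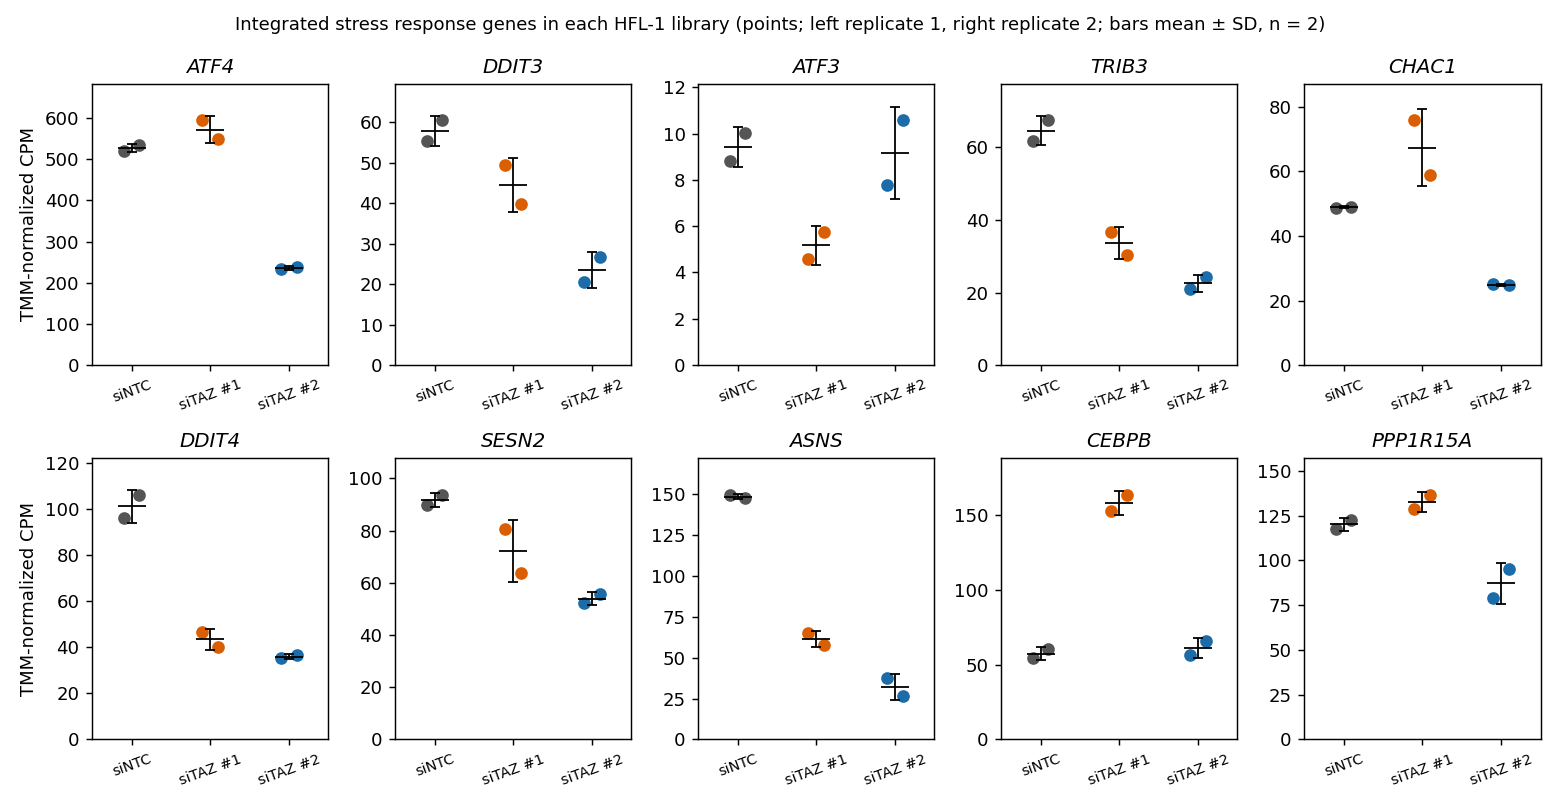
Level of each of the 10 genes in the 6 libraries, in TMM-normalized CPM on an axis from 0, with points for libraries and bars for the mean ± SD of 2. ATF4 was at 232.9 and 239.2 CPM with siTAZ #2 and above 520 CPM in the other 4 libraries, while CEBPB was above 152 CPM with siTAZ #1 and under 66 CPM elsewhere.

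Of the transcription factors, ATF4 (chromosome 22, 39915700 to 39918688, plus strand, GRCh37), the central activator of the response, was at 520.2 and 533.5 CPM with siNTC, 594.5 and 548.5 CPM with siTAZ #1, and 232.9 and 239.2 CPM with siTAZ #2. Both siTAZ #2 libraries were far below the other 4, and both siTAZ #1 libraries were slightly above both controls. Relative to the controls, siTAZ #2 gave it a log2FC of -1.16 (SE 0.08, FDR 0.00074), and siTAZ #1 a log2FC of 0.12 (SE 0.08, FDR 0.34, 95% interval -0.07 to 0.31). The decrease with siTAZ #2 passed the threshold in each of the 19 alternatives.

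DDIT3 (chromosome 12, 57910371 to 57915520, minus strand) encodes CHOP, a C/EBP-related factor induced by ATF4 that promotes cell death when stress persists. It was at 55.3 and 60.5 CPM with siNTC, 49.4 and 39.9 CPM with siTAZ #1, and 20.5 and 26.7 CPM with siTAZ #2. The 3 groups did not overlap. By the quasi-likelihood test, siTAZ #2 gave it a log2FC of -1.30 (SE 0.18, FDR 0.0053). With siTAZ #1 it was -0.38 (SE 0.18, FDR 0.2), and it passed the threshold only when siTAZ #1 replicate 1 was left out, at -0.54 (FDR 0.022). Of the 903 exon bases of DDIT3, 219 are also exon of MARS1 on the opposite strand, listed as MARS, whose log2 fold change was -0.27 with siTAZ #1 and -0.85 with siTAZ #2. The strand setting of the counting is not given in the sources used here, so reads from the shared bases cannot be told apart.

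ATF3 (chromosome 1, 212738676 to 212794119, plus strand), a stress-induced repressor and activator of the same family, had the fewest counts of the 10. It was at 8.81 and 10.03 CPM with siNTC, 4.58 and 5.77 CPM with siTAZ #1, and 7.76 and 10.6 CPM with siTAZ #2. Both siTAZ #1 libraries were below the other 4, and the siTAZ #2 libraries lay on either side of the controls. Against siNTC, siTAZ #1 gave it a log2FC of -0.86 (SE 0.25, FDR 0.061), and siTAZ #2 a log2FC of -0.04 (SE 0.25, FDR 0.92, 95% interval -0.65 to 0.56). The value with siTAZ #1 missed the threshold here and passed it in 5 alternatives, among them DESeq2 (FDR 0.024) and the fit without siTAZ #1 replicate 2 (-1.04, FDR 0.029).

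CEBPB (chromosome 20, 48807367 to 48809205, plus strand) encodes C/EBPβ, a partner of ATF4 that also acts in inflammatory and differentiation responses. It was at 54.3 and 60.4 CPM with siNTC, 152.6 and 163.6 CPM with siTAZ #1, and 56.5 and 65.9 CPM with siTAZ #2. The siTAZ #1 libraries stood far above the other 4, and the siTAZ #2 and siNTC libraries overlapped. Relative to the controls, siTAZ #1 gave it a log2FC of 1.46 (SE 0.12, FDR 0.0014), past the threshold in all 19 alternatives, and siTAZ #2 a log2FC of 0.09 (SE 0.11, FDR 0.58). CEBPB has the highest GC content of the 10 transcripts (66.2%), and with an offset for GC content the value with siTAZ #2 turned to -0.43 (FDR 0.02). An antisense gene, CEBPB-AS1, covers 231 of its 1839 exon bases.

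Of the inhibitors and effectors downstream of ATF4, TRIB3 (chromosome 20, 343479 to 378203, plus strand), a pseudokinase that restrains ATF4 and AKT, was at 61.8 and 67.5 CPM with siNTC, 36.7 and 30.5 CPM with siTAZ #1, and 20.9 and 24.2 CPM with siTAZ #2. The 3 groups did not overlap. By the quasi-likelihood test, siTAZ #1 gave it a log2FC of -0.95 (SE 0.15, FDR 0.01), and siTAZ #2 a log2FC of -1.52 (SE 0.15, FDR 0.002). For siTAZ #1 the FDR missed the threshold when siNTC replicate 1 (0.07) or siNTC replicate 2 (0.087) was left out, and in edgeR's exact test (FDR 0.12).

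PPP1R15A (chromosome 19, 49375469 to 49379316, plus strand) encodes GADD34, the phosphatase subunit that reverses eIF2 phosphorylation. It was at 117.7 and 122.4 CPM with siNTC, 128.5 and 136.6 CPM with siTAZ #1, and 79.1 and 95.3 CPM with siTAZ #2. Both siTAZ #2 libraries were the lowest and both siTAZ #1 libraries the highest. Against siNTC, siTAZ #2 gave it a log2FC of -0.46 (SE 0.11, FDR 0.028), and siTAZ #1 a log2FC of 0.14 (SE 0.11, FDR 0.41). This decrease, the smallest of the 8, was lost without siNTC replicate 1 (FDR 0.11), siNTC replicate 2 (FDR 0.14) or siTAZ #2 replicate 1 (FDR 0.11).

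CHAC1 (chromosome 15, 41245160 to 41248710, plus strand), an enzyme that breaks down glutathione and is induced through ATF4 and CHOP, was at 48.8 and 49.1 CPM with siNTC, 75.8 and 58.9 CPM with siTAZ #1, and 25.1 and 24.7 CPM with siTAZ #2. The siTAZ #1 libraries were above the controls and differed from each other more than those of the other groups. Relative to the controls, siTAZ #2 gave it a log2FC of -0.98 (SE 0.15, FDR 0.0068), and siTAZ #1 a log2FC of 0.46 (SE 0.15, FDR 0.08). The decrease lost its call narrowly without siNTC replicate 1 (FDR 0.053) or replicate 2 (FDR 0.055). Leaving out siTAZ #1 replicate 2 took the siTAZ #1 value to 0.63 and past the threshold (FDR 0.0036), as did DESeq2 (FDR 0.03).

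DDIT4 and SESN2 encode REDD1 and sestrin 2, stress proteins that restrain the growth kinase mTORC1. DDIT4 (chromosome 10, 74033678 to 74035794, plus strand) was at 96.2 and 106.3 CPM with siNTC, 46.7 and 40.4 CPM with siTAZ #1, and 35.2 and 36.7 CPM with siTAZ #2. All 4 siTAZ libraries were under the level of the lower control by a wide margin. By the quasi-likelihood test, siTAZ #1 gave it a log2FC of -1.22 (SE 0.12, FDR 0.0028), and siTAZ #2 a log2FC of -1.49 (SE 0.12, FDR 0.0011), and both calls held in all 19 alternatives. SESN2 (chromosome 1, 28586029 to 28609002, plus strand) was at 90.0 and 93.7 CPM with siNTC, 80.5 and 63.9 CPM with siTAZ #1, and 52.3 and 55.6 CPM with siTAZ #2. The groups did not overlap, but siTAZ #1 replicate 1 lay close to the controls. Against siNTC, siTAZ #2 gave SESN2 a log2FC of -0.77 (SE 0.13, FDR 0.01), and siTAZ #1 a log2FC of -0.35 (SE 0.13, FDR 0.12). For siTAZ #2 that decrease lost its call when any of the 4 libraries of that comparison was left out (siNTC replicate 1, FDR 0.064, and replicate 2, FDR 0.077; siTAZ #2 replicate 1, FDR 0.067, and replicate 2, FDR 0.054). Without siTAZ #1 replicate 1, the value with siTAZ #1 passed, at -0.52 (FDR 0.0043).

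ASNS (chromosome 7, 97480989 to 97501854, minus strand), asparagine synthetase, is the classic amino acid response gene and carries the core shown above just ahead of its start. It was at 149.8 and 147.7 CPM with siNTC, 65.1 and 57.9 CPM with siTAZ #1, and 37.5 and 26.3 CPM with siTAZ #2. The 3 groups did not overlap, and its decrease with siTAZ #2 was the largest of the 10 genes. Relative to the controls, siTAZ #1 gave it a log2FC of -1.28 (SE 0.18, FDR 0.0068), and siTAZ #2 a log2FC of -2.22 (SE 0.18, FDR 0.0011). Leaving out siNTC replicate 1 (FDR 0.066) or replicate 2 (FDR 0.064) cost the call for siTAZ #1, at values of -1.27 and -1.29. A lncRNA model on the same strand covers 2374 of the 2385 exon bases of ASNS in the annotation used here. Of the 3 genes with the core in the window, ASNS was called lower with both siRNAs, CHAC1 with siTAZ #2 alone and ATF3 with neither. ATF3 narrowly missed the threshold of the quasi-likelihood test with siTAZ #1 (-0.86, FDR 0.061).

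**Figure D2:**
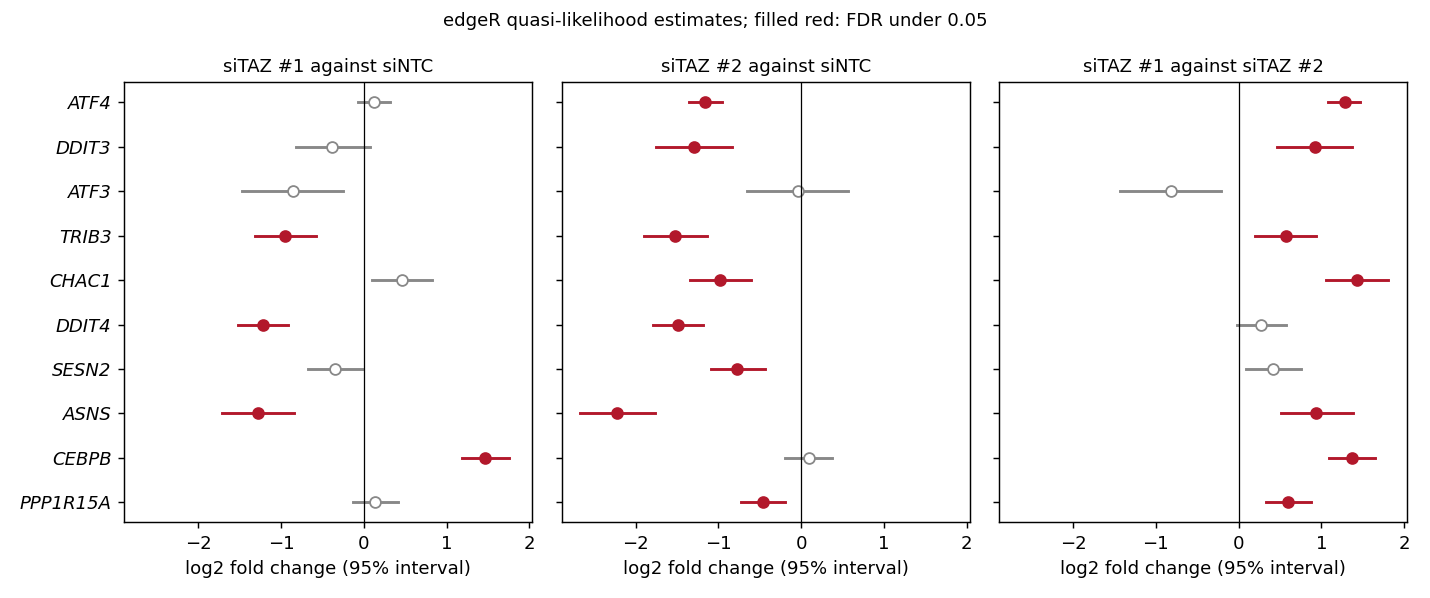
Log2 fold changes of the 10 genes with 95% intervals in the 3 comparisons, from edgeR's quasi-likelihood test, with filled red points for an FDR under 0.05. For siTAZ #2, 8 points are red and left of 0, for siTAZ #1 3 are red and left of 0, with CEBPB red on the right at 1.46. In the direct comparison 7 points are red, all right of 0.

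The siRNAs were then compared directly. Of the 10 genes, 7 were higher with siTAZ #1 than with siTAZ #2 (ATF4, DDIT3, TRIB3, CHAC1, ASNS, CEBPB and PPP1R15A), while 15.2% of all genes were higher in this comparison. In the other direction, 0 of 10 passed by edgeR's quasi-likelihood test against 13.4% of all genes, with ATF3 alone passing at an unadjusted p under 0.05 and in DESeq2 (0 in the exact test). CHAC1 differed most, by 1.43 on the log2 scale (SE 0.15, FDR 0.0022), then CEBPB by 1.37 (SE 0.12, FDR 0.0013) and ATF4 by 1.28 (SE 0.08, FDR 0.00071). ASNS differed by 0.94 (FDR 0.012), DDIT3 by 0.92 (FDR 0.015), PPP1R15A by 0.60 (FDR 0.012) and TRIB3 by 0.57 (FDR 0.036). For DDIT4, lowered by both, the difference was 0.27 with a 95% interval from -0.02 to 0.57 (FDR 0.15). For SESN2 it was 0.42, with an interval from 0.09 to 0.75 (FDR 0.063). ATF4, CHAC1 and CEBPB kept their call in all 19 alternatives. Over all genes, 2137 were higher in this comparison, 735 in edgeR's exact test on 4 libraries and 1144 without siTAZ #2 replicate 1. The number of 7 went to 3 in that exact test and to 4 without siTAZ #2 replicate 1, where DDIT3 (FDR 0.073), TRIB3 (FDR 0.16) and PPP1R15A (FDR 0.051) lost their call. TRIB3 also lost it without siTAZ #2 replicate 2 (FDR 0.087), siNTC replicate 1 (FDR 0.079) or siNTC replicate 2 (FDR 0.08). TAZ itself was lower with siTAZ #1 than with siTAZ #2, by 0.70 on the log2 scale (SE 0.10, FDR 0.005, and 0.27 in the exact test).

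The order of the levels was compared per kb of canonical transcript. ATF4 led in each group, at 371.3 ± 6.7 CPM per kb (SD, n = 2) with siNTC, 402.7 ± 22.9 (n = 2) with siTAZ #1 and 166.4 ± 3.17 (n = 2) with siTAZ #2, and ATF3 was last at 4.86 ± 0.445, 2.67 ± 0.432 and 4.72 ± 1.02. With siNTC, DDIT3 (61.3 and 67.0) and ASNS (62.8 and 61.9) overlapped in the 2nd and 3rd place, followed by DDIT4 (55.1 and 60.8) and PPP1R15A (50.1 and 52.1), which did not overlap. CHAC1, CEBPB, TRIB3 and SESN2 lay between 26.0 and 32.8, with CHAC1 and CEBPB overlapping and TRIB3 and SESN2 overlapping. With siTAZ #1, CEBPB moved from 7th to 2nd place (83.0 and 88.9 CPM per kb) and ASNS from 3rd to 6th (27.3 and 24.3), overlapping DDIT4 (26.7 and 23.1) in 7th. With siTAZ #2, ASNS was 8th (15.7 and 11.04) and overlapped SESN2 (15.1 and 16.1), while PPP1R15A (33.7 and 40.6) and CEBPB (30.7 and 35.8) overlapped in the places after ATF4.

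**Figure D3:**
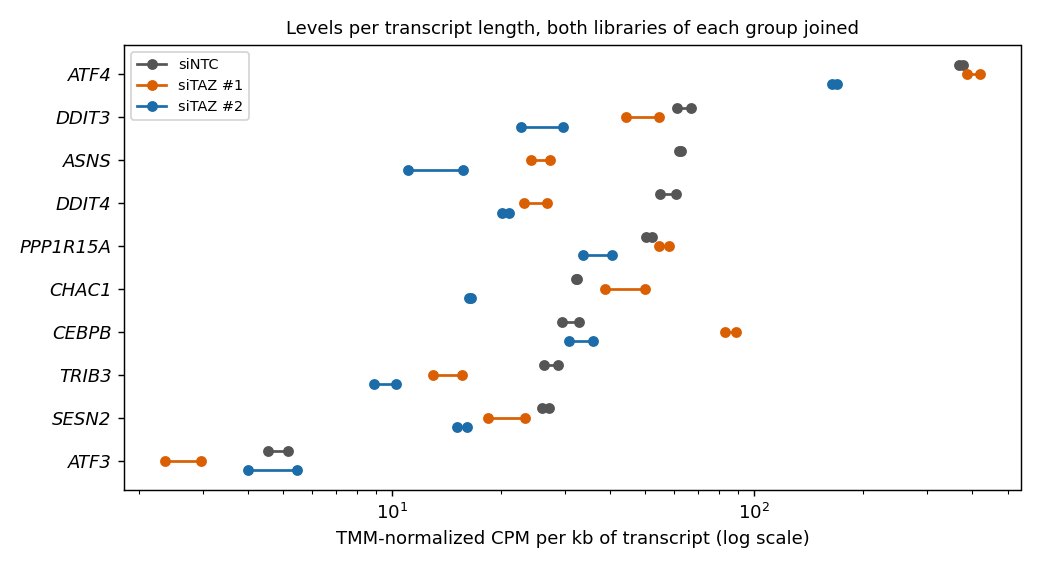
Levels of the 10 genes per kb of canonical transcript on a log axis, with the 2 libraries of a group joined and genes ordered by their siNTC mean. ATF4 stands above the rest in each group, at 164.1 to 418.9 CPM per kb, and ATF3 below, at 2.36 to 5.45.

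Replicates of the same group agreed to within 0.51 on the log2 scale for every gene of the 10 (ASNS with siTAZ #2). With siTAZ #1, ATF4, DDIT3, TRIB3, CHAC1, DDIT4, SESN2 and ASNS were higher in replicate 1, by 0.12 to 0.36, and ATF3, CEBPB and PPP1R15A were higher in replicate 2, by 0.09 to 0.33. The genes whose levels followed ATF4 most closely over the 6 libraries were VRK1, BIRC5 and GAS2L3, with root mean square differences of centred log2 CPM of 0.0308, 0.0501 and 0.0502. Their log2 fold changes were 0.16, 0.19 and 0.14 with siTAZ #1 and -1.14, -1.12 and -1.08 with siTAZ #2. These had to lie near those of ATF4, because the genes were picked for their likeness to it over the same libraries. Of the 10 genes, CHAC1 was nearest to ATF4, at 0.155. For DDIT3 the nearest genes were CA12 (0.0836), RQCD1 (0.0841) and AARS (0.102), and TRIB3 was the nearest of the 10 (0.239).

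Genes upstream of ATF4 and other lists were described beside the shares of all genes that were lower (9.78% with siTAZ #1 and 14.4% with siTAZ #2) or higher (10.8% and 14.1%). Of 22 genes of the eIF2 signalling machinery, 2 were lower with siTAZ #1 (PPP1CB and GCN1L1) and 2 higher (DNAJC3 and PPP1CC), and 7 were lower and 2 higher with siTAZ #2 (DNAJC3 and PPP1R15B), with medians of -0.16 and -0.34. The counts with siTAZ #1 were near the share of all genes. EIF2B1, a subunit of the exchange factor that phosphorylated eIF2 blocks, fell with siTAZ #2 from 70.7 ± 2.24 to 31.4 ± 3.58 CPM (SD, n = 2), a log2 fold change of -1.17 (FDR 0.0021), against -0.15 with siTAZ #1 (FDR 0.43). DNAJC3, an inhibitor of the eIF2 kinase PERK, rose by 0.77 with siTAZ #1 (FDR 0.0035) and by 0.38 with siTAZ #2 (FDR 0.022). PPP1CB, a catalytic subunit that works with GADD34, had a log2FC of -0.86 under siTAZ #1 (FDR 0.0097) and of 0.38 with siTAZ #2 (FDR 0.083). EIF2S3 lies in the stretch missing from siTAZ #1 replicate 2 and had a value of -1.70 with siTAZ #1 (FDR 0.17).

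Among 16 tested relatives and dimer partners of ATF4, 2 were lower (FOSL2 and JDP2) and 2 higher (ATF2 and FOSL1) with siTAZ #1, and 3 lower (ATF7, CEBPG and FOSL1) and 3 higher (ATF1, ATF2 and JUNB) with siTAZ #2. These counts were near the shares of all genes, 9.78% lower and 10.8% higher with siTAZ #1, and 14.4% and 14.1% with siTAZ #2. ATF2 rose with both, by 0.94 and 0.72 (FDR 0.0041 and 0.0064). JUNB rose with siTAZ #2 from 19.8 ± 3.55 to 79.6 ± 2.17 CPM (SD, n = 2; log2 fold change 2.01, FDR 0.0039), and its value with siTAZ #1 was 0.62 (FDR 0.14). ATF7 fell with siTAZ #2 (-1.12, FDR 0.0023) and FOSL2 with siTAZ #1 (-1.12, FDR 0.0035). Of 7 paralogs of the 10 genes, 2 rose with siTAZ #1 (TRIB1 and TRIB2) and 4 with siTAZ #2 (also SESN1 and PPP1R15B), against 10.8% and 14.1% of all genes. TRIB2, a relative of TRIB3, rose with both siRNAs, averaging 18.3 ± 1.55 CPM in the controls, 103.2 ± 5.43 CPM under siTAZ #1 and 67.7 ± 0.503 CPM under siTAZ #2 (SD, n = 2; log2FC 2.5 and 1.89, FDR 0.00062 and 0.00064), and TRIB1 rose by 0.94 and 0.78 (FDR 0.0043 and 0.005), so that both went the other way from TRIB3. CHAC2 fell with siTAZ #2 (-1.75, FDR 0.031).

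Other targets of ATF4 were described in 3 lists. Of 19 genes of amino acid synthesis and transport, 16 were lower with siTAZ #2 (median -0.97, against 14.4% of all genes lower) and 9 with siTAZ #1 (median -0.58, against 9.78%), and 0 were higher with either in edgeR's quasi-likelihood test. At an unadjusted p under 0.05, and in DESeq2, 1 was higher with siTAZ #1 and 0 with siTAZ #2, and the exact test gave 0 and 0. Over the 19 alternatives the number higher with siTAZ #1 ran from 0 to 2, and it was above 0 in 13 of them. ALDH1L2, a mitochondrial folate enzyme, fell with both siRNAs, averaging 135.3 ± 7.53 CPM in the controls, 53.6 ± 4.07 CPM under siTAZ #1 and 30.0 ± 0.2996 CPM under siTAZ #2 (SD, n = 2; log2FC -1.34 and -2.17, FDR 0.0013 and 5e-04). PYCR1, which makes proline, fell more with siTAZ #1 (-2.25, FDR 0.00065) than with siTAZ #2 (-0.50, FDR 0.024), with a difference of -1.75 between them (FDR 0.00078). SLC7A1, a carrier of cationic amino acids, fell with siTAZ #2 (-0.51, FDR 0.045) and had a value of 0.52 with siTAZ #1 (FDR 0.051). ALDH18A1, SLC3A2 and SLC1A4 did not pass with siTAZ #2, at -0.20, -0.24 and -0.66. With either siNTC library left out, fewer of these genes were lower with each siRNA, as were fewer of all genes.

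Against the same shares of all genes, of 13 genes of tRNA charging and export 12 were lower with siTAZ #2 (median -0.85) and 5 with siTAZ #1 (GARS, WARS, IARS, SARS and EPRS, median -0.30), and 0 were higher with either by the quasi-likelihood test, at an unadjusted p under 0.05, in DESeq2 and in the exact test. When siTAZ #1 replicate 1 was left out, a gene of this list passed as higher with siTAZ #1, and the number higher over all genes rose too. GARS, glycyl-tRNA synthetase, fell with both siRNAs, averaging 529.6 ± 40.8 CPM in the controls, 243.1 ± 16.8 CPM under siTAZ #1 and 217.2 ± 3.82 CPM under siTAZ #2 (SD, n = 2; log2FC -1.12 and -1.29, FDR 0.0017 and 0.00086). AARS fell with siTAZ #2 (-1.39, FDR 0.00094) and was at -0.30 with siTAZ #1 (FDR 0.097), and XPOT, the exporter of tRNA, also fell with siTAZ #2 (-0.94, FDR 0.042) and was at 0.23 with siTAZ #1 (FDR 0.56). IARS was the gene that did not pass with siTAZ #2 (-0.14, FDR 0.22). The response element core was found in the promoters of 8 of these 13 genes (61.5%) and of 4 of the 19 of amino acid supply (21.1%), against 1.52% of all. GARS, ALDH1L2 and SLC7A5 of these lists are on the list that the study chose on these libraries. Leaving out either siNTC library reduced the numbers lower in the tRNA list with each siRNA, as it did over all genes.

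**Figure D4:**
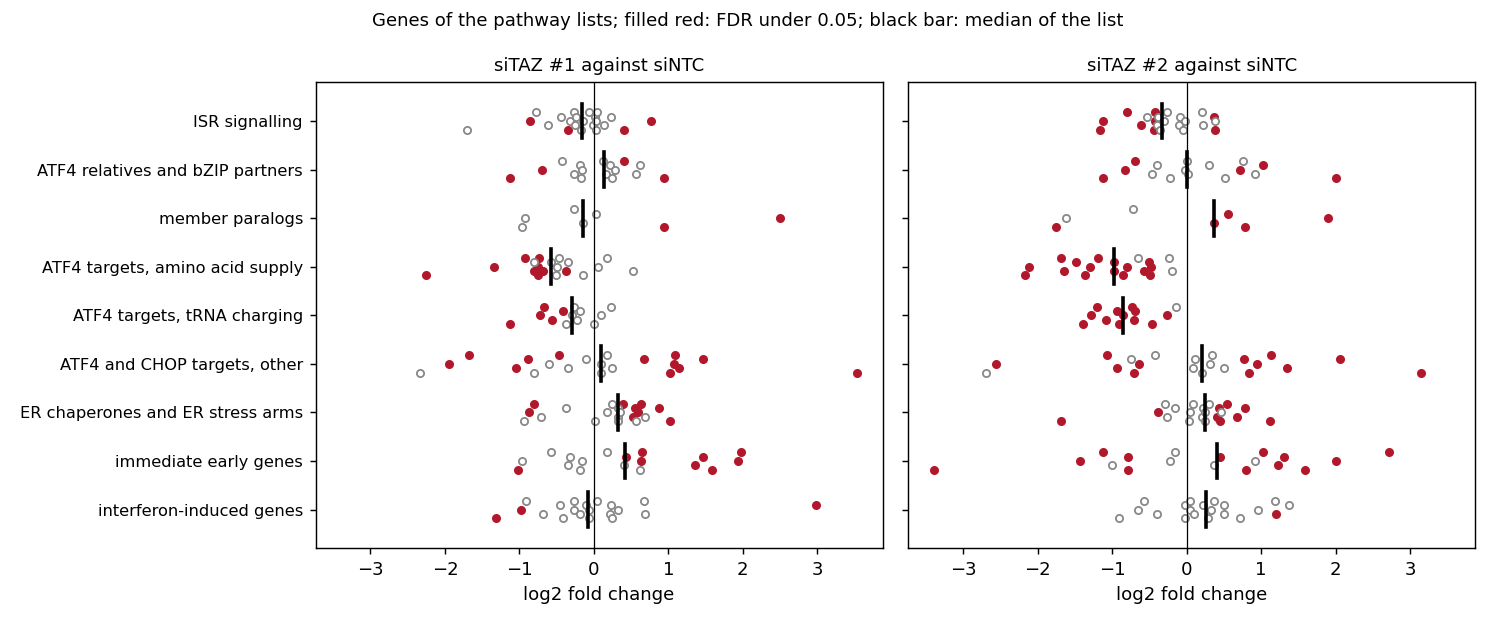
Log2 fold changes of the tested genes of 9 lists with each siRNA, a point for each gene, filled red at an FDR under 0.05, with a black bar at the median of the list. With siTAZ #2, the points of amino acid supply and tRNA charging lie left of 0, with medians of -0.97 and -0.85, while the other lists spread to both sides.

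Other stress genes did not move in a single direction. Of 21 tested further targets of ATF4 and CHOP, 7 were higher with each siRNA and 5 were lower with siTAZ #1 (NUPR1, EIF4EBP1, INHBE, BCL2L11 and SQSTM1) and 5 with siTAZ #2 (NUPR1, EIF4EBP1, INHBE, STC2 and HERPUD1), with medians of 0.09 and 0.20. The shares of all genes were 10.8% higher and 9.78% lower with siTAZ #1, and 14.1% and 14.4% with siTAZ #2. For these targets, the numbers in both directions were above those shares. GDF15, a stress-induced cytokine, rose with both siRNAs, averaging 17.0 ± 1.38 CPM in the controls, 196.1 ± 10.5 CPM under siTAZ #1 and 150.4 ± 14.4 CPM under siTAZ #2 (SD, n = 2; log2FC 3.53 and 3.14, FDR 0.00043 and 0.00034). ADM2 lies in the stretch missing from siTAZ #1 replicate 2 and had values of -2.34 and -2.69 (FDR 0.2 and 0.14). Of 21 ER chaperones and sensors, 7 were higher with each siRNA and 2 were lower with siTAZ #1 (XBP1 and EDEM1) and with siTAZ #2 (XBP1 and PDIA4), with medians of 0.33 and 0.25. For the ER genes, the numbers lower were near or under the shares of all genes, and the numbers higher were above them. XBP1, the transcription factor of another arm of the ER stress response, fell by 0.87 with siTAZ #1 (FDR 0.0046) and by 1.69 with siTAZ #2 (FDR 0.00064), while the cochaperone DNAJB11 rose by 1.02 and 1.12 (FDR 0.0072 and 0.0039). XBP1, INHBE and ADM2 are on the list that the study chose on these libraries. CRELD2, in the missing stretch, was at -0.94 and 0.08 (FDR 0.7 and 0.98).

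Immediate early genes, which respond to handling and serum as well as to stress, were listed because ATF3 is often counted with them. Of 18, 8 were higher with each siRNA, and 1 was lower with siTAZ #1 (DUSP5, -1.02, FDR 0.0051) and 5 with siTAZ #2 (KLF4, MYC, DUSP1, DUSP5 and ZFP36). Of all genes, 10.8% were higher and 9.78% lower with siTAZ #1, and 14.1% and 14.4% with siTAZ #2. KLF4 had a log2FC of -3.39 under siTAZ #2 (FDR 0.0031) and of -0.32 with siTAZ #1 (FDR 0.56), and EGR2 rose by 1.94 and 2.72 (FDR 0.0075 and 0.0021). EGR3 rose with siTAZ #1 (1.98, FDR 0.029) and had a value of -1.01 with siTAZ #2 (FDR 0.17). The list summed to 881.2 and 893.4 CPM with siNTC, 1096 and 1204 CPM with siTAZ #1, and 1051 and 1006 CPM with siTAZ #2. Of 20 tested interferon-induced genes, which double-stranded RNA can raise, 2 were lower with siTAZ #1 (IFI44 and IFIT2) and 1 was higher (CXCL10, 2.98, FDR 0.014), and with siTAZ #2 IRF7 was higher (1.20, FDR 0.037) and 0 were lower in edgeR's quasi-likelihood test (2 at an unadjusted p under 0.05, 1 in DESeq2 and 2 in the exact test). These counts of interferon-induced genes were near or under the shares of all genes. CXCL10 was at or under 2.04 CPM on average in every group. EIF2AK2, the eIF2 kinase that senses double-stranded RNA, had values of 0.23 and 0.22 (FDR 0.42 and 0.43).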

How the data were processed

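RNA was sequenced in 6 libraries of HFL-1 cells, and the authors aligned the reads to hg19 and counted them per gene with HTSeq 0.6.1, by the submitters' processing notes. Each deposited value is such a count, a whole number that the authors did not normalize. The strand setting and counting mode are not given in the sources used here. Of 23368 entries, 13 carry a date in place of a symbol and were left out (0.0458% to 0.0506% of a library).

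Counts were filtered with filterByExpr, normalized by TMM, and all 6 libraries entered 1 quasi-likelihood model (edgeR 4.0.16, R 4.3.3). Adjustment was by Benjamini-Hochberg over 14053 genes with a threshold of FDR 0.05. The SE is the absolute log2FC over the square root of F. The fit was tested on simulated data. Levels are TMM-normalized CPM. With 2 libraries against 2, no permutation can reach a p under 0.05. Positions, promoters and motifs are from GENCODE v44lift37 and the GRCh37 genome, with 21440 symbols matched, 1884 of them by an older symbol or a RefSeq synonym.

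The genes and lists were chosen with earlier results of these data known. Named genes are the 10 of the response in every library, WWTR1, in each list the genes with the lowest and the highest log2 fold change with each siRNA, with further genes only to complete a count of 5 or fewer, and the 3 genes nearest to ATF4 and to DDIT3. MARS, EIF2AK2, the fibroblast markers, and the names added from the study's list, were chosen after their values were seen, as were the list genes that did not pass with siTAZ #2. The 19 alternatives were scaling by RLE, by the upper quartile or by library totals, no filter, a mean count of at least 50, DESeq2 1.42.0, edgeR's exact test, a robust dispersion, a fit of 4 libraries, a replicate block, each library left out, an FDR of 0.1, dropping the genes of the stretch missing from siTAZ #1 replicate 2, and an offset for GC content, known for 95.4% of genes tested.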

Additional observations from a re-analysis of the deposited data

Results flagged for a closer look

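The siRNAs differed from each other, by a direct test in the same fit (edgeR's quasi-likelihood test, FDR under 0.05), for 7 of the 10 genes of the response. All 7 were higher with siTAZ #1 than with siTAZ #2, against 15.2% of all genes. On the log2 scale, as siTAZ #1 minus siTAZ #2, the differences were 1.28 for ATF4, 0.92 for DDIT3, 0.57 for TRIB3, 1.43 for CHAC1, 0.94 for ASNS, 1.37 for CEBPB and 0.60 for PPP1R15A. In each of these genes, both libraries of siTAZ #1 were above both libraries of siTAZ #2. That adds no support, because the test on the same libraries picked the genes. For WWTR1, the targeted gene, the difference was -0.70.

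Of the list genes with the lowest or highest fold change with a siRNA, those higher with siTAZ #1 were CXCL10 by 3.90, KLF4 by 3.06, EGR3 by 2.99, XPOT by 1.17, AARS by 1.09, SLC7A1 by 1.03, EIF2B1 by 1.02, ALDH1L2 by 0.84, XBP1 by 0.82, ATF7 by 0.69, TRIB2 by 0.61, DNAJC3 by 0.39 and GDF15 by 0.38. Those of the same kind that were lower with siTAZ #1 than with siTAZ #2 had differences of -2.28 for MX2, -1.75 for PYCR1, -1.68 for IFI44, -1.38 for JUNB, -1.24 for PPP1CB, -0.71 for FOSL2 and -0.53 for IARS. Group means reached only 1.81 CPM for MX2, 2.04 CPM for CXCL10 and 5.75 CPM for EGR3, so their large differences rest on low levels. Of the further genes that the text names, PDGFRA was higher by 1.46, FOSL1 by 1.23, STC2 by 1.17, MYC by 1.07, ZFP36 by 0.96, PPP1CC by 0.82, PDIA4 by 0.79, CD68 by 0.74, SARS by 0.65, HERPUD1 by 0.60, MARS by 0.58, EPRS by 0.49, EIF4EBP1 by 0.47 and SLC7A5 by 0.45, and the differences were -1.88 for SQSTM1, -1.38 for BCL2L11, -1.16 for IRF7, -0.92 for COL1A1, -0.70 for SESN1, -0.63 for EDEM1, -0.54 for THY1 and -0.44 for SLC3A2. LUM was also higher with siTAZ #1 than with siTAZ #2, by 1.39, and DCN by 0.93. What sets the siRNAs apart was not tested.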

How the results depend on the processing

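Over the log2 fold changes of the 10 genes in 3 comparisons and 19 alternatives, 570 values in all, 507 kept their direction and their side of the threshold, 26 lost a call, 30 gained one and 7 changed sign. Against siNTC, the calls of ATF4, DDIT3, TRIB3 and ASNS with siTAZ #2 were kept in all 19, narrowly so for DDIT3. Those of DDIT4 with both siRNAs and of CEBPB with siTAZ #1 were also kept in all 19. The sign changed for ATF3 with siTAZ #2, to 0.00 with library-total scaling, 0.07 with the GC offset, 0.04 without siNTC replicate 2 and 0.16 without siTAZ #2 replicate 1 (range -0.31 to 0.16 with a library left out), and for CEBPB with siTAZ #2, to -0.43 with the GC offset, 0.00 without siNTC replicate 1 and -0.05 without siTAZ #2 replicate 2 (range -0.05 to 0.20). Genes lower with siTAZ #1 numbered 3, but 5 in DESeq2 and without the stretch missing from siTAZ #1 replicate 2, 2 in the exact test, and 1 to 5 with a library left out. Genes higher with siTAZ #1 numbered 1, but 2 in DESeq2, with the robust dispersion, at FDR 0.1 and without that stretch, and 1 to 2 with a library left out. Genes lower with siTAZ #2 numbered 8, but 9 with the GC offset, where CEBPB was called, and 5 to 8 with a library left out, and those lower with both numbered 3, and 1 to 5. Against siTAZ #2, genes lower with siTAZ #1 numbered 0, but 1 (ATF3) with upper-quartile scaling, a mean count of at least 50, DESeq2, the robust dispersion, FDR 0.1, the GC offset and without the stretch, and 0 to 1 with a library left out, and genes higher numbered 7, but 3 in the exact test, 9 with the GC offset, and 4 to 9 with a library left out. Where leaving out a library left a single one, its variance was taken from the other groups. Over all genes the numbers moved too. Lower with siTAZ #1 were 1374, but 1945 in DESeq2, 1998 without the stretch and 414 in the exact test. Higher were 1515, but 2023 in DESeq2, 1883 with the robust dispersion, 2218 at FDR 0.1 and 2115 without the stretch. Lower with siTAZ #2 were 2021, but 2208 with the GC offset. Against siTAZ #2, 1883 were lower with siTAZ #1, but 1924 to 2525 in the settings named for ATF3. Higher there were 2137, but 735 in the exact test and 2169 with the GC offset.

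With a replicate block, the numbers lower than siNTC stayed at 3 and 8, and 6 in place of 7 genes were higher with siTAZ #1 than with siTAZ #2, TRIB3 losing its call (FDR 0.08). Over all genes, the block left 823 and 1420 lower and 1542 higher in these comparisons. Deviations of same-numbered libraries correlated at -0.0059 (siNTC and siTAZ #1), 0.01 (siNTC and siTAZ #2) and -0.18 (siTAZ #1 and siTAZ #2) over 13478 genes. With a single such deviation per group, these values cannot show whether same-numbered libraries were prepared together. The lists were put through the same alternatives after the data were seen. Amino acid supply genes lower numbered 9 with siTAZ #1 (3 to 13 over the alternatives) and 16 with siTAZ #2 (9 to 18), and tRNA charging genes 5 (1 to 8) and 12 (9 to 12). No scaling moved the median of all genes by more than 0.06. With 139 to 188 counts in all but a siTAZ #1 library of 71, ATF3 was the least precise of the 10, and intervals over 2 libraries cannot show small changes. The cause of these shifts was not tested.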
